A study of Mus musculus with 21 samples.

Results

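The genes described here are 10 genes of the B lymphocyte lineage, among them the immunoglobulin loci Igk and Ighm, out of 18194 genes measured. The others include the surrogate light chain genes Igll1 and Vpreb1, the Vpreb1 relative Vpreb3, and the receptor signalling genes Cd79a and Cd79b. The last are the transcription factor genes Ebf1 and Pax5 and the adaptor gene Blnk. The genes were chosen by name, and 29 probe sets of the array are annotated to a member alone. The brightest probe set on average stands for its gene, and the others are given beside it.

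Expression was measured on 21 Affymetrix arrays of cells sorted from mouse bone marrow. LSK cells, negative for lineage markers and positive for Sca-1 and Kit, hold the stem and multipotent progenitor cells, and granulocyte macrophage progenitors (GMP) form neutrophils and monocytes. Control mice were Dot1 wt/wt x Mx-Cre and the other mice were Dot1l fl/fl x Mx-Cre, all on the C57/BL6 background and all injected with PIPC. The injection deleted both Dot1l alleles in the second kind, and the study asked how LSK and GMP without Dot1l, a histone methyltransferase, differ from their controls. The arrays were 6 LSK-Control, 6 LSK-Dot, 5 GMP-Control and 4 GMP-Dot, named by the K numbers of their labels. Mx-Cre is driven by an interferon-responsive promoter and acts in many cell types of the mouse, and the Cre transgene and the injection are shared by all 4 groups. The labels give no age or sex. They leave unsaid whether the arrays of a group came from different mice, and the p-values measure only the spread between these samples, which may be technical.

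B cells arise from multipotent progenitors in the bone marrow. E2A, Ebf1 and Pax5 switch on the genes of the pre-B cell receptor, in which the Ighm heavy chain pairs with a surrogate light chain made of the Igll1 and Vpreb1 proteins and signals through Cd79a, Cd79b and the adaptor Blnk. Germline transcripts of the immunoglobulin loci can be made before the gene segments are joined.

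Igll1, Vpreb1 and Cd79a are classical targets of E2A and Ebf1, and their promoters are shown as those of both surrogate light chain parts and of a receptor signalling gene. Igll1 and Vpreb1 are neighbours on chromosome 16. Each stretch holds 250 bases before and 50 after the gene's start, 5′ to 3′ on the gene's strand, from RefSeq on build GRCm38.p6, with motif matches in capitals. The windows lie at chr16:16863936-16864235 (minus strand) for Igll1, chr16:16869206-16869505 (minus strand) for Vpreb1 and chr7:24897247-24897546 (plus strand) for Cd79a.
Igll1: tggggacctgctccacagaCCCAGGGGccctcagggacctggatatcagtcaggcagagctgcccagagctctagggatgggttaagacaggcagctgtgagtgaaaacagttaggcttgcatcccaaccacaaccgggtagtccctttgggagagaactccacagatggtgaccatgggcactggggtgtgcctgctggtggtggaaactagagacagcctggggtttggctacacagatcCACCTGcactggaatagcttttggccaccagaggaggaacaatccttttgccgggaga
Vpreb1: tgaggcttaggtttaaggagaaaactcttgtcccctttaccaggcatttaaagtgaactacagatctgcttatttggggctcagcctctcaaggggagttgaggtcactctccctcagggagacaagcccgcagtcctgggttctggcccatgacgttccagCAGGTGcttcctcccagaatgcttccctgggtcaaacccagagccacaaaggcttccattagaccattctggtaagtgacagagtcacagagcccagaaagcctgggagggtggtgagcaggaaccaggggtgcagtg
Cd79a: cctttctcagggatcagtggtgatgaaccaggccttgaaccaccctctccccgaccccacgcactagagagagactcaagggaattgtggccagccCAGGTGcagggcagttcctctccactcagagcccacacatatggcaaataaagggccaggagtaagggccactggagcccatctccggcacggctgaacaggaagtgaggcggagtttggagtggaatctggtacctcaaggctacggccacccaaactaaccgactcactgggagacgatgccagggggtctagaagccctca
Motifs were searched on both strands. The E2A E-box CAGGTG, or CACCTG on the other strand, was found in 4 of the 8 member promoters in the table, those of Igll1, Vpreb1, Cd79a and Blnk, and in 20.2% of all 32851 promoters. Counted from the gene's start, the matches begin at -8 in Igll1, -88 in Vpreb1, -154 in Cd79a and -160 in Blnk. The Ebf1 core CCCNNGGG, found in 13.7% of all promoters, matched once, at -231 in Igll1. The longer Ebf1 palindrome, which is this core with a T before it and an A after it, is in 0.904% of all promoters and in 0 of these 8. The remaining promoters searched were those of Vpreb3, Pax5 and, with 2 start sites, Ebf1.

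Values are log2 of the deposited intensities, written below as log2 levels. Array medians over the 18194 genes lay between 5.31 and 5.52, which is a rough gauge of a dim signal. The LSK-Dot array K1272 stood apart, whose Spearman correlation with its group averaged 0.649, against 0.810 to 0.957 for the other 20 arrays. It also had the highest median, 5.52, and the lowest upper quartile of log2 levels, 6.81. Upper quartiles on the other LSK arrays were 7.40 to 7.76. The part of this narrower range in the levels read from K1272 was not tested. The arrays carry 2 Dot1l probe sets. The brighter had means of 6.48 ± 0.30 (SD, n = 6) in LSK-Control, 6.38 ± 0.35 (n = 6) in LSK-Dot, 6.74 ± 0.16 (n = 5) in GMP-Control and 6.22 ± 0.42 (n = 4) in GMP-Dot, and the genotypes overlapped in both cell types. Nothing in the labels places this probe set inside or outside the deleted part of the gene, so it does not check the genotype. In GMP-Control against LSK-Control 6 of 8 LSK markers measured were called lower and 7 of 9 GMP markers higher, and in GMP-Dot against LSK-Dot 0 of 8 were called lower and 2 of 9 higher. The mean centred LSK marker level ranged from 1.41 to 2.02 in LSK-Control and from -1.70 (K1272) to 1.91 (K1359) in LSK-Dot. It ranged from -1.995 to -1.29 in GMP-Control and from -1.26 to -0.81 in GMP-Dot. For the LSK markers LSK-Dot K1272 thus read at the level of the GMP arrays. Its mean GMP marker level, -1.59, did not, and lay in the LSK-Control range of -1.67 to -0.91.

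Igk was the member that separated the cell types. It was 38.1-fold lower in GMP-Control than in LSK-Control and 18.3-fold lower in GMP-Dot than in LSK-Dot, and both differences passed the test, limma with Benjamini-Hochberg adjustment over all genes at 0.05. Loss of Dot1l gave 0 called members in LSK, where 0 of all genes were called, and 0 called members in GMP, where 0.143% of all genes were called. At an unadjusted p under 0.05 there was 1 member (Cd79a) in LSK, beside 1021 of all genes, and 3 members in GMP (Vpreb1, Cd79b and Pax5), beside 2537 of all genes. The difference between the deletion effects in GMP and LSK gave 0 called members, against 0.0330% of all genes, with 1 member (Pax5) at an unadjusted p under 0.05 beside 2473 of all genes. Between control GMP and control LSK 1 of 10 members was called, lower in GMP, against 12.0% of all genes called (7.03% higher and 4.95% lower). Between the deleted populations it was also 1 of 10, lower in GMP, against 0.143% of all genes (0.0495% higher and 0.0934% lower). The member share between the controls was thus near the share of all genes.

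**Figure D1:**
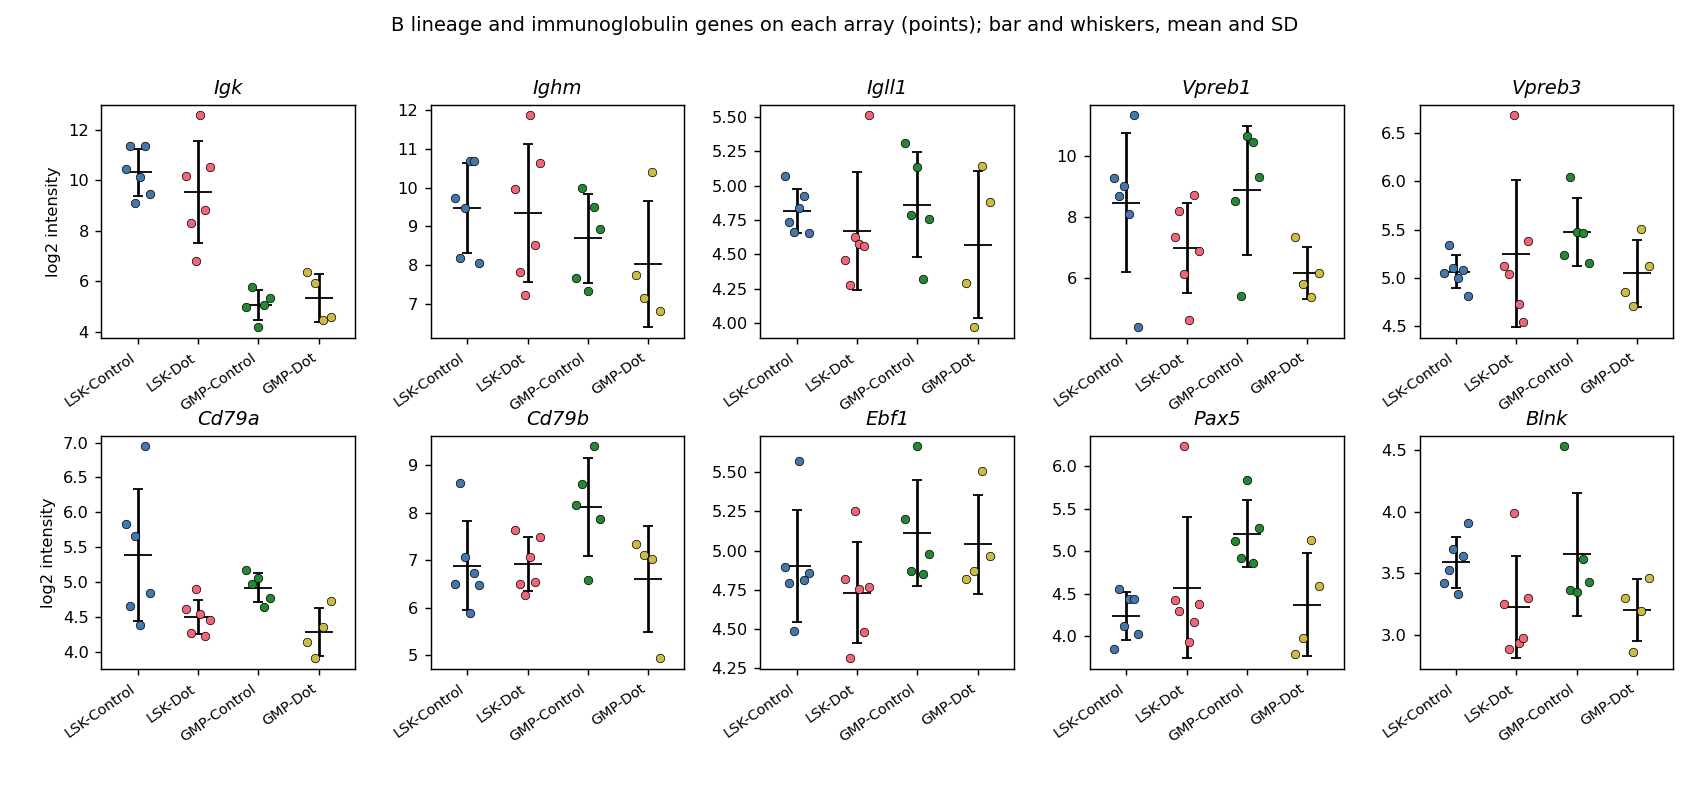
Log2 level of the chosen probe set of each member on every array (points), with the group mean and SD (bar and whiskers). Igk separates LSK from GMP on every array, while Vpreb1 spans from 4.40 to 11.33 within LSK-Control, and the vertical scales differ between panels.

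The immunoglobulin loci behaved differently from each other. Igk encodes the kappa light chain. Its probe set 1452557_a_at had a lowest, median and highest level of 9.11, 10.30 and 11.37 on the 6 LSK-Control arrays and 6.79, 9.51 and 12.57 on the 6 LSK-Dot arrays. In GMP-Control it read 4.98, 5.77, 4.17, 5.07 and 5.33, and in GMP-Dot 6.36, 5.92, 4.48 and 4.60. All LSK arrays were above all GMP arrays, and K1359 was the highest and K1272 the lowest LSK-Dot array. Means were 10.32 ± 0.94 in LSK-Control, 9.54 ± 2.01 in LSK-Dot, 5.07 ± 0.59 in GMP-Control and 5.34 ± 0.94 in GMP-Dot (SD).

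GMP-Control was below LSK-Control for Igk by a log2 difference of -5.25 ± 0.73 (SE, limma adjusted p = 0.00026), and GMP-Dot below LSK-Dot by -4.20 ± 0.78 (adjusted p = 0.036). The deletion effect was -0.78 ± 0.70 in LSK (adjusted p = 0.98, 95% interval -2.24 to 0.68) and 0.27 ± 0.81 in GMP (adjusted p = 0.87, interval -1.42 to 1.97). In sorted bulk samples fewer cells with Igk RNA and less of it per cell cannot be told apart. The call between the deleted populations is less firm than that between the controls. It was lost when LSK-Control K1601 (adjusted p = 0.0559), LSK-Dot K1091 (0.0804), LSK-Dot K1422 (0.0865), GMP-Control K1581 (0.0505), GMP-Dot K1190 (0.0905) or GMP-Dot K1272 (0.0857) was left out, with Igk differences between -4.54 and -4.0. It was also lost with the replicate number as a block (adjusted p = 0.0703 as a random block and 1 with a level for each number), with only the groups compared (0.277), with log2(intensity + 32) (0.0890), with GMP-Dot K1190 and K1272 averaged (0.0921) and without both control K1581 arrays (0.0590). The difference shrank to -1.19 as the mean of probe sets and to -0.58 without probe sets of suffix _s, _x or _a, neither of them called.

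The other 3 Igk probe sets did not show this difference. Probe set 1425738_at had means of 4.93 ± 1.77 in LSK-Control and 4.32 ± 0.64 in GMP-Control and reached 8.08 on LSK-Control K1604 alone. Probe sets 1427757_at and 1426178_at had means between 2.75 and 4.24 in the 4 groups. Against LSK-Control, the GMP-Control differences of these 3 were -0.61 ± 0.63, 0.29 ± 0.24 and 0.05 ± 0.15 (SE). Immunoglobulin loci are multigene families, and the annotation used here does not say which variable or constant segment each probe set reads.

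Ighm encodes the heavy chain of IgM. Its brightest probe set, 1427351_s_at, had a lowest, median and highest level of 8.06, 9.61 and 10.70 in LSK-Control and 7.23, 9.23 and 11.87 in LSK-Dot. In GMP-Control it read 7.66, 9.999, 7.33, 9.51 and 8.94, and in GMP-Dot 7.75, 7.15, 10.42 and 6.80. These 4 groups overlapped, and all 21 arrays were above their median gene. K1359 was the highest array in both LSK-Dot and GMP-Dot. Unlike Igk, whose levels in GMP straddled the median gene, Ighm stayed bright in GMP.

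The Ighm difference between GMP-Control and LSK-Control was -0.78 ± 0.82 (SE, limma adjusted p = 0.49, 95% interval -2.49 to 0.93), and between GMP-Dot and LSK-Dot -1.31 ± 0.88 (adjusted p = 0.93). The deletion effects were -0.13 ± 0.78 in LSK (interval -1.77 to 1.5) and -0.66 ± 0.91 in GMP (interval -2.56 to 1.23). The second brightest probe set, 1427329_a_at, had its highest LSK-Dot and GMP-Dot levels on the same K1359 arrays, at 8.99 and 7.64. Probe set 1426196_at went the other way between the cell types. Its means were 4.53 ± 0.37 (SD) in LSK-Control and 5.49 ± 0.38 in GMP-Control, a difference of 0.97 ± 0.27 (SE, limma adjusted p = 0.031 over all probe sets). Over all 11 Ighm probe sets, 2 read lower and 9 read higher in GMP-Control, so the sign of the Ighm difference depends on the probe set. The 2 that read lower were the 2 brightest. The 9 that read higher were dimmer, with LSK-Control means of 3.68 to 5.52, and the median difference over all genes was 0.285.

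The surrogate light chain genes are switched off as B cells mature. Vpreb1, which encodes the variable-like part of the surrogate light chain, was the most variable member within both control groups. It had a lowest, median and highest level of 4.40, 8.86 and 11.33 in LSK-Control and 4.63, 7.13 and 8.72 in LSK-Dot. In GMP-Control it read 8.55, 5.44, 10.64, 10.45 and 9.31, and in GMP-Dot 7.36, 5.81, 5.38 and 6.17. Its SD of 2.27 within LSK-Control was larger than that of 99.9% of genes, and its SD of 2.10 within GMP-Control larger than that of 98.7%. The highest array was LSK-Control K1581 and the lowest LSK-Control K1553, so both ends of the range were control arrays.

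Vpreb1 was lower in Dot1l-deleted cells by point estimate, and neither difference passed the test. It was -2.70 ± 1.13 in GMP (SE, limma adjusted p = 0.31, 95% interval -5.06 to -0.33), where 4 of 5 control arrays were above all 4 deleted arrays. In LSK it was -1.48 ± 0.98 (adjusted p = 0.98, interval -3.52 to 0.55), and -0.91 without LSK-Control K1581 or -2.30 without LSK-Control K1553. Between GMP-Control and LSK-Control Vpreb1 differed by 0.40 ± 1.02 (interval -1.73 to 2.54), and -0.41 without LSK-Control K1553.

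Igll1 encodes lambda5, the constant-like part of the surrogate light chain. Its chosen probe set, 1420177_at, was dim in all groups, with means of 4.82 ± 0.16 in LSK-Control, 4.67 ± 0.43 in LSK-Dot, 4.86 ± 0.38 in GMP-Control and 4.57 ± 0.54 in GMP-Dot (SD). Only 1 of 21 arrays, LSK-Dot K1422 at 5.51, was above its median gene. The differences were -0.15 ± 0.24 (SE) for deletion in LSK, -0.29 ± 0.27 for deletion in GMP and 0.05 ± 0.25 between control cell types, with limma adjusted p of 0.98, 0.59 and 0.90. The second Igll1 probe set, 1420176_x_at, differed more between LSK groups. Its lowest, median and highest levels were 3.98, 4.59 and 5.64 in LSK-Control and 3.75, 4.01 and 4.09 in LSK-Dot. LSK-Control K1581 and K1603 were the high arrays, at 5.64 and 5.50, and the deletion difference was -0.80 ± 0.27 (SE, limma adjusted p = 0.64 over all probe sets).

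Vpreb3, a chaperone-like relative of Vpreb1 that associates with heavy chains, had means of 5.07 ± 0.17 in LSK-Control, 5.25 ± 0.76 in LSK-Dot, 5.47 ± 0.35 in GMP-Control and 5.05 ± 0.35 in GMP-Dot (SD). Its highest level, 6.68, was on LSK-Dot K1272, and it was above the median gene on 4 of 21 arrays. The differences were 0.18 ± 0.28 (SE) for deletion in LSK, -0.43 ± 0.32 for deletion in GMP and 0.41 ± 0.29 between control cell types, with limma adjusted p of 0.98, 0.51 and 0.31.

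Cd79a and Cd79b encode Ig-alpha and Ig-beta, the signalling chains of the pre-B and B cell receptors. Cd79a had a lowest, median and highest level of 4.39, 5.25 and 6.94 in LSK-Control and 4.22, 4.50 and 4.91 in LSK-Dot. In GMP-Control it read 5.17, 4.97, 5.05, 4.65 and 4.77, and in GMP-Dot 4.15, 3.91, 4.36 and 4.72. The 3 high arrays were LSK-Control K1581, K1601 and K1603, at 6.94, 5.83 and 5.66, and these were the only arrays on which Cd79a was above the median gene. The remaining LSK-Control arrays lay within the LSK-Dot range.

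The Cd79a deletion difference was -0.89 ± 0.32 in LSK (SE, limma adjusted p = 0.65, 95% interval -1.55 to -0.22) and -0.64 ± 0.37 in GMP (adjusted p = 0.42, interval -1.41 to 0.14). Without LSK-Control K1581 the LSK difference was -0.57. Between GMP-Control and LSK-Control Cd79a differed by -0.47 ± 0.34 (adjusted p = 0.31), and by -0.12 with both control K1581 arrays left out.

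Cd79b was brighter and had its highest group median in control GMP, though LSK-Control K1602 also read high, at 8.63. Its lowest, median and highest levels were 5.88, 6.61 and 8.63 in LSK-Control and 6.25, 6.80 and 7.63 in LSK-Dot. It read 8.16, 8.60, 6.58, 9.40 and 7.86 in GMP-Control and 7.33, 7.11, 7.02 and 4.93 in GMP-Dot. Of the 5 control GMP arrays 4 were above every GMP-Dot array, and GMP-Dot K1421 was far below the rest.

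The Cd79b difference was -1.52 ± 0.58 for deletion in GMP (SE, limma adjusted p = 0.27, 95% interval -2.73 to -0.32) and 0.03 ± 0.50 for deletion in LSK (interval -1.01 to 1.07). The difference between these effects was -1.55 ± 0.76 (adjusted p = 0.37, interval -3.14 to 0.04). Without GMP-Dot K1421 the GMP difference was -0.97 and the difference of effects -0.996. GMP-Control exceeded LSK-Control by 1.24 ± 0.52 (adjusted p = 0.11). Without LSK-Control K1602 the difference was 1.59 (adjusted p = 0.0418), which passes the threshold, and without GMP-Control K1604 it was 0.92. It passed in 3 of 35 alternative settings, and the highest limma adjusted p over all 35 was 0.23.

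Pax5, the factor that commits cells to the B lineage, was the only member besides Igk whose control groups did not overlap, at a dim level. It had a lowest, median and highest level of 3.85, 4.28 and 4.56 in LSK-Control and 3.93, 4.34 and 6.23 in LSK-Dot. In GMP-Control it read 5.12, 4.92, 5.84, 4.86 and 5.28, and in GMP-Dot 3.79, 3.98, 5.13 and 4.58. All GMP-Control arrays were above all LSK-Control arrays. The high LSK-Dot value was that of K1272, and only it and 1 GMP-Control array exceeded the median gene.

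GMP-Control exceeded LSK-Control for Pax5 by 0.97 ± 0.34 (SE, limma adjusted p = 0.067, 95% interval 0.26 to 1.68). The median difference over all genes was 0.285, with 34.2% of all genes below 0. GMP-Control K1603, with the highest Pax5 of its group, had an upper quartile of 6.96, in a group range of 6.95 to 7.78. The part of these in the Pax5 difference was not tested. Without LSK-Dot K1272, which enters only through the shared spread, the limma adjusted p for Pax5 was 0.0067. In that fit 5531 of all genes were called, beside 2180. The Pax5 difference passed in 3 of 34 alternative settings. It shrank to 0.44 with log2(intensity + 32), and the highest limma adjusted p over all 34 was 0.17. Groups did not overlap for 2 of 10 members, Igk and Pax5, against 14.7% of all genes in this comparison. Between the deleted populations they did not overlap for 1 member, Igk, against 2.03% of all genes. For deletion in LSK and in GMP they overlapped for every member, with 0.330% and 4.78% of all genes not overlapping. The Pax5 deletion difference was -0.84 ± 0.38 in GMP (adjusted p = 0.34, interval -1.63 to -0.05) and 0.34 ± 0.33 in LSK (interval -0.34 to 1.02), and the difference of these was -1.17 ± 0.50 (adjusted p = 0.34). Without LSK-Dot K1272 the LSK value was 0.003. The second Pax5 probe set, 1421765_at, was dimmer, with means between 3.32 and 3.86, and differed between control cell types by 0.53 ± 0.27 (SE).

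Ebf1, the factor that acts with E2A at the surrogate light chain genes, was dim by its chosen probe set, 1439789_at. Its means were 4.90 ± 0.36 in LSK-Control, 4.73 ± 0.32 in LSK-Dot, 5.11 ± 0.34 in GMP-Control and 5.04 ± 0.32 in GMP-Dot (SD), and the differences were -0.17 ± 0.21 (SE) for deletion in LSK, -0.07 ± 0.25 for deletion in GMP and 0.21 ± 0.22 between control cell types. The limma adjusted p were 0.98, 0.89 and 0.49. A dimmer Ebf1 probe set, 1448293_at, read 5.20 on LSK-Control K1581 against 2.22 to 2.60 on the other 5 LSK-Control arrays, and 4.46 on GMP-Dot K1272. Probe set 1416301_a_at had means of 4.05 ± 0.80 in LSK-Control and 3.35 ± 0.13 in LSK-Dot (SD), a difference of -0.71 ± 0.34 (SE, limma adjusted p = 0.90 over all probe sets). For deletion in GMP this probe set went the other way, at 0.45 ± 0.39 (adjusted p = 0.58). The difference of these effects was 1.155 ± 0.52 (adjusted p = 0.36).

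Blnk, the adaptor that links the receptor to its downstream kinases, was below the median gene on all 21 arrays. Its means were 3.59 ± 0.21 in LSK-Control, 3.22 ± 0.41 in LSK-Dot, 3.66 ± 0.50 in GMP-Control and 3.20 ± 0.25 in GMP-Dot (SD). The differences were -0.37 ± 0.23 (SE) for deletion in LSK, -0.45 ± 0.26 for deletion in GMP and 0.07 ± 0.24 between control cell types, with limma adjusted p of 0.98, 0.42 and 0.85.

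**Figure D2:**
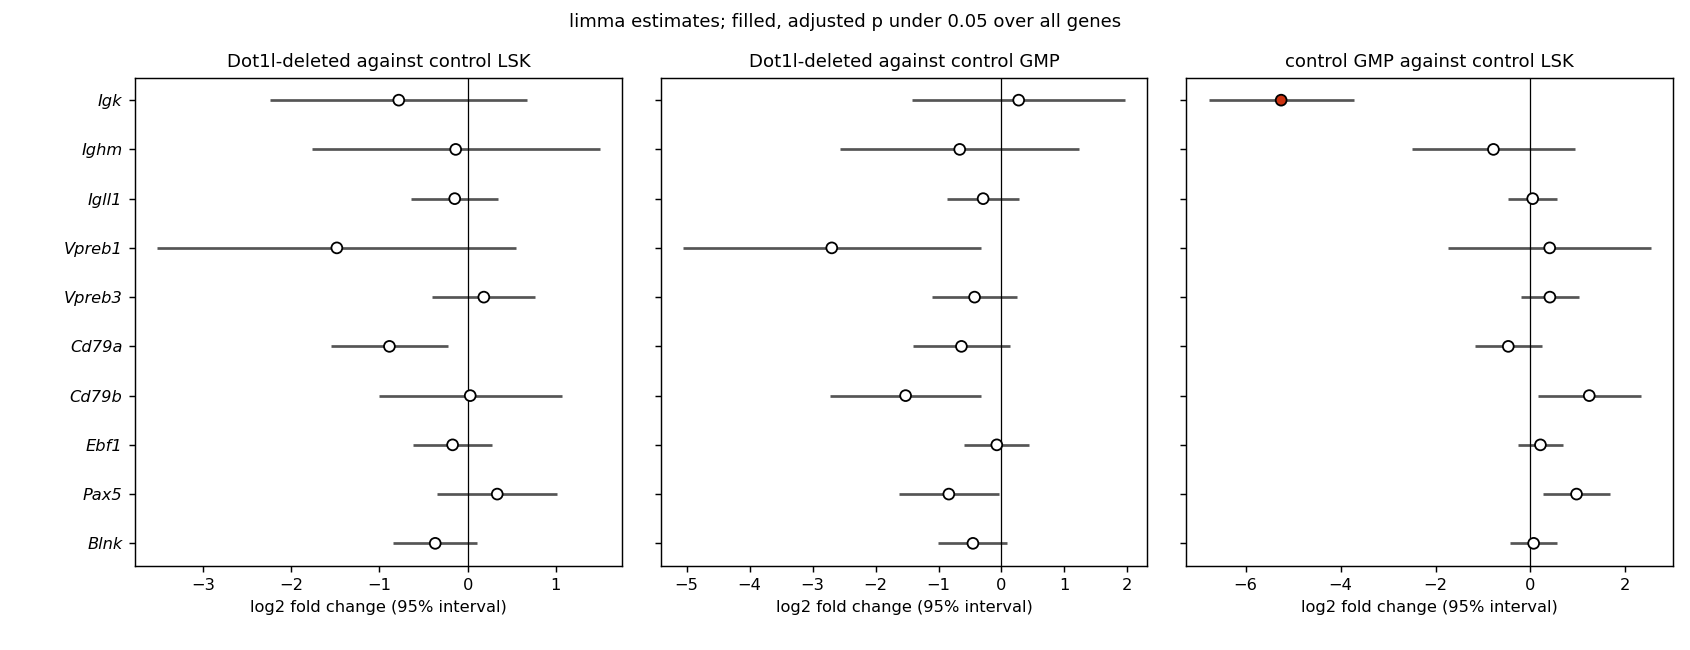
Log2 fold change of each member with its 95% interval in 3 comparisons, from limma, with filled points for an adjusted p under 0.05. Igk between control cell types, at -5.25, is the filled point, and in GMP the intervals of Vpreb1, Cd79b and Pax5 lie below 0 without passing the adjusted threshold.

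Over the 10 members, 7 had a point estimate below 0 for deletion in LSK and 9 for deletion in GMP. The member medians were -0.16 and -0.54, beside medians over all genes of 0.06 and -0.20, and 41.6% and 65.7% of all genes were below 0. For the difference of effects, the 8 members other than Cd79b and Pax5 ranged from -1.21 to 1.05, with a smallest limma adjusted p of 0.47. Between GMP-Dot and LSK-Dot the 8 members other than Igk and Ighm ranged from -0.81 to 0.31, with a smallest adjusted p of 0.98. The deletion comparisons and the comparison of control cell types share the control arrays, so their signs are not independent of each other.

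On LSK-Control K1581, 4 of 10 members exceeded the median of the 12 LSK arrays by over 1 (log2), against 0 to 2 on each other LSK array. These were Vpreb1 at 3.19, Cd79a at 2.31, Igk at 1.20 and Ighm at 1.08 above that median, and for Vpreb1 and Cd79a it was the highest of all 21 arrays. The probe sets that stand for Ebf1 and Igll1 were near the median there, at 0.009 and 0.27. Other probe sets of these genes, dimmer on average, differed among themselves. For Ebf1 they were at 2.83 (1448293_at), 1.53 (1416301_a_at), 1.23 (1416302_at) and -0.009 (1457441_at), and for Igll1 at 1.58 (1420176_x_at). Pou2af1, a B cell coactivator of immunoglobulin transcription that is described here after its values were seen, was 5.21 above the median on K1581. LSK-Control K1601 had 2.19 for Pou2af1, 1.20 for Cd79a and 1.15 for Vpreb1, and LSK-Control K1603 had 1.03 for Cd79a and 0.89 for Vpreb1.

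Most markers of mature B cells were not raised by over 1 (log2) on K1581. Ms4a1 (CD20) was at -0.08 from the LSK median, Cd22 at 0.19, Cr2 at -0.38 and Fcer2a (CD23) at -0.04. All of these were dim there, at log2 levels of 2.66, 3.81, 3.36 and 3.74, below the array's median gene of 5.37. Cd72, a brighter marker, read 7.99 on K1581, its highest level among the LSK arrays. Of 18 mature B cell markers measured, Pou2af1 was the 1 gene that exceeded the LSK median by over 1 on K1581. LSK-Dot K1272 had 5 such genes, Cd37, Ltb, Cxcr5, Spib and Cd83, and each other LSK array had 0 to 2. The mean centred log2 level of the 18 genes ranged from -0.01 to 0.46 in LSK-Control, from -0.39 to 0.32 in LSK-Dot, from -0.21 to 0.14 in GMP-Control and from -0.37 to -0.21 in GMP-Dot. K1581 held the highest value of all arrays.

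Late neutrophil genes were also high on LSK-Control K1581, K1601 and K1603, the arrays with the highest Vpreb1 and Cd79a in LSK. Of 14 measured, 13 exceeded the LSK median by over 1 on K1581, 10 on K1601 and 8 on K1603. LSK-Control K1602 had 7 of them, with Vpreb1 at 0.54 and Cd79a at 0.03 from the median, so high neutrophil genes did not go with high Cd79a on every array. Each other LSK array had 0 to 2. Ltf (lactoferrin), a secondary granule gene, was 5.28 above the LSK median on K1581, 3.31 on K1601, 2.69 on K1603 and 1.76 on K1602. The mean centred level of the 14 genes ranged from -0.39 to 3.25 in LSK-Control and from -1.70 to -0.31 in LSK-Dot. Early lymphoid and recombination genes were raised there too. Of 12 measured, 5 exceeded the LSK median by over 1 on K1581 (Dntt, Rag1, Rag2, Lax1 and Ly6d). K1601 and K1603 each had 4 (Il7r, Dntt, Rag2 and Lax1). LSK-Control K1604 had the same 4 and LSK-Dot K1359 had 6, with Vpreb1 at -0.05 and -3.51 from the median. Whether cells other than LSK contributed to the Vpreb1 and Cd79a levels of K1581, K1601 and K1603 was not tested.

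**Figure D3:**
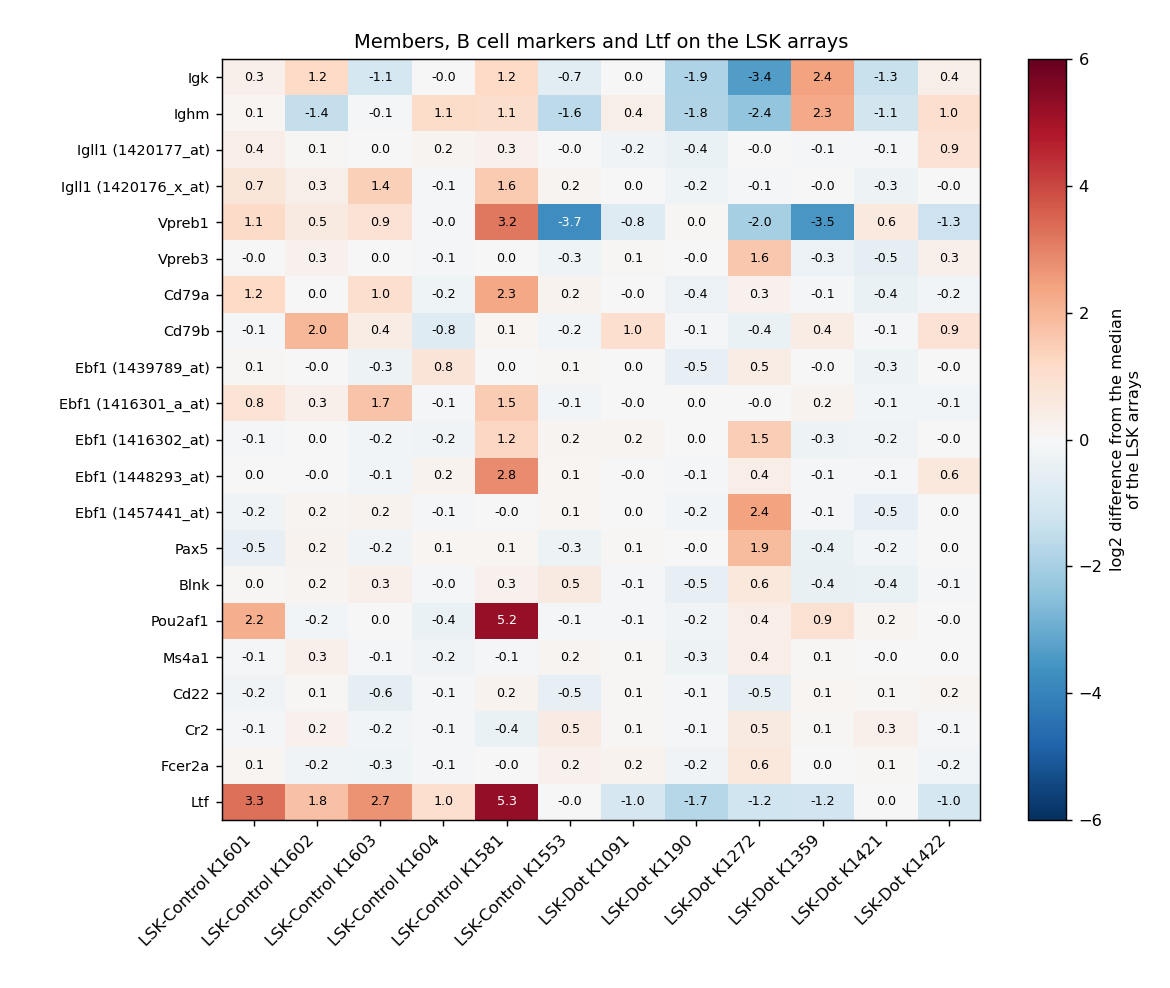
Log2 difference of each gene from its median over the 12 LSK arrays (colour and printed value), for the 10 members by the probe set that stands for each, the other Ebf1 and Igll1 probe sets, Pou2af1, mature B cell markers and the neutrophil gene Ltf. LSK-Control K1581 is high for Vpreb1, Cd79a, Pou2af1 and Ltf. It is near the median for Ebf1 1439789_at and Igll1 1420177_at but not for all their other probe sets. For the dim markers Ms4a1, Cd22, Cr2 and Fcer2a it is within 0.38 of the median.

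At the extremes of LSK-Dot the immunoglobulin loci and lymphoid progenitor genes were high or low on the same array. LSK-Dot K1359 had the highest Igk (12.57) and Ighm (11.87) of all arrays and the highest mean level of 12 early lymphoid and recombination genes in its group (1.60 on a centred log2 scale). LSK-Dot K1272 had the lowest of its group for all of these, at 6.79, 7.23 and -1.14. Markers of the sorted cells differed on these arrays as well. The mean LSK marker level was 1.91 on K1359 and -1.70 on K1272, against -0.58 to 0.88 on the other 4 LSK-Dot arrays, and the mean GMP marker level was -2.15 on K1359, the lowest of all arrays, and -1.59 on K1272. K1272 also had the lowest upper quartile of all arrays, 6.81. The part of these markers and of that low quartile in the Igk and Ighm levels was not tested. The other LSK arrays did not all follow this order. LSK-Control K1602 had the lowest early lymphoid mean of its group (0.44) with the second highest Igk (11.35), and LSK-Control K1603 had the second highest mean (1.57) with the lowest Igk (9.11). LSK-Dot K1091, at -0.31, had a higher Igk (10.19) than LSK-Dot K1421 (8.83), at 0.15. On K1359 the genes Il7r, Dntt, Rag1, Rag2, Notch1 and Satb1 exceeded the LSK median by over 1, while Vpreb1 was 3.51 below it. In LSK-Control the early lymphoid mean ranged from 0.44 to 1.62, and in GMP-Control from -0.84 to -0.54.

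**Figure D4:**
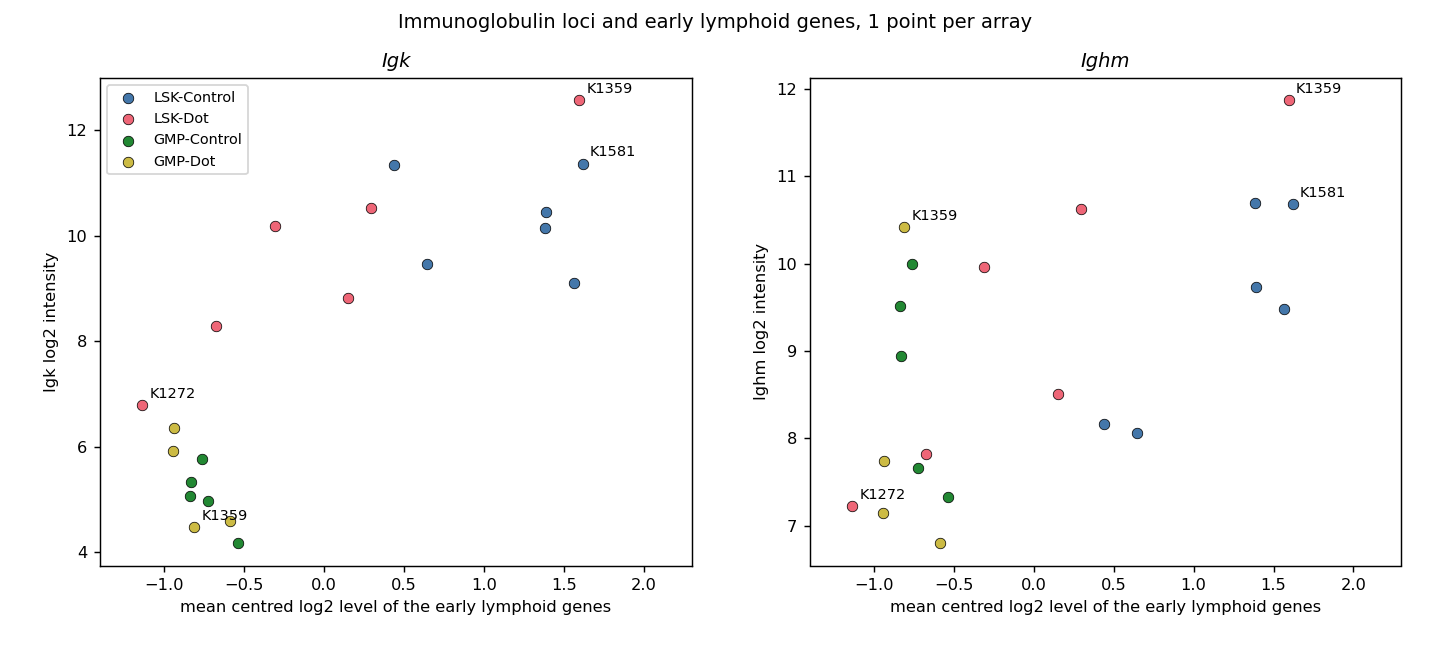
Log2 level of Igk (left) and Ighm (right) against the mean centred log2 level of 12 early lymphoid genes, 1 point per array. The GMP arrays sit at the left with Igk between 4.17 and 6.36, and LSK-Dot K1359 and K1272 mark the upper and lower ends of LSK-Dot, with 12.57 and 6.79 for Igk, while in LSK-Control Igk is 11.35 at the lowest mean, 0.44, and 9.11 at 1.57.

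Other genes of the pathway were called between the control cell types alone among the 5 comparisons. In that comparison 7.03% of all genes were called higher in GMP and 4.95% lower, which applies to each list below. Of 12 early lymphoid and recombination genes, 6 fell in GMP-Control against LSK-Control and 0 rose, with a list median of -1.73 beside 0.28 over all genes. They include Flt3, a cytokine receptor of lymphoid-primed progenitors (-5.07 ± 0.60, SE, limma adjusted p = 9.6e-05), Lax1, a lymphocyte adaptor (-2.51 ± 0.36, adjusted p = 0.00028), Dntt, the enzyme that adds bases at joined gene segments (-6.01 ± 0.86, adjusted p = 0.00030), and Erg, a stem cell transcription factor (-2.34 ± 0.55, adjusted p = 0.011). For deletion in LSK 10 of the 12 had estimates below 0, beside 41.6% of all genes. Their median was -0.89, beside 0.06 over all genes, and 0 were called.

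Of 16 B lineage transcription factors, 3 fell between the control cell types and 0 rose. These were Bcl11a (-1.81 ± 0.36, SE, limma adjusted p = 0.0041), Bach2 (-1.77 ± 0.41, adjusted p = 0.0096) and Sox4 (-2.55 ± 0.73, adjusted p = 0.029), and the list median was -0.06. Spi1 (PU.1), which also drives myeloid genes, was 1.32 ± 0.44 higher without passing (adjusted p = 0.056). For deletion in GMP 13 of 16 had estimates below 0, beside 65.7% of all genes. Their median was -0.40, beside -0.20 over all genes, and 0 were called. Of 13 pre-B and B cell receptor signalling genes, 2 fell between the control cell types and 0 rose. They were Dapp1, an adaptor of phosphoinositide signalling (-2.95 ± 0.62, SE, adjusted p = 0.0056), and Plcg2, a phospholipase (-1.59 ± 0.42, adjusted p = 0.021), and the list median was 0.18. Fcgr2b, an inhibitory Fc receptor, had the smallest p of this list for deletion in LSK, at 1.69 ± 0.70 (adjusted p = 0.79), and Cd22 differed between control cell types by 0.43 ± 0.24 (adjusted p = 0.20).

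Of 18 mature B cell markers, 1 rose in GMP-Control against LSK-Control (Fcmr, an IgM Fc receptor, 0.62 ± 0.20, SE, limma adjusted p = 0.049) and 1 fell (H2-Ob, a class II antigen loading gene, -4.82 ± 0.69, adjusted p = 0.00030). Ms4a1 was 0.61 ± 0.23 higher (adjusted p = 0.081), and Cd37 was -2.27 ± 0.59 for deletion in GMP (adjusted p = 0.14). Of 9 plasma cell genes, 2 rose, Xbp1 (1.76 ± 0.40, adjusted p = 0.0096) and Tnfrsf17 (0.70 ± 0.22, adjusted p = 0.045), and 2 fell, Jchain, the joining chain of secreted IgM (-2.35 ± 0.48, adjusted p = 0.0046), and Sdc1 (-3.69 ± 0.75, adjusted p = 0.0047). The medians of these lists were 0.18 and 0.20.

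The genes whose levels over all 21 arrays were most like the mean of the 10 centred members were Vangl2, Zfp467, Tgfbr2, Hmox1 and Emp1, with Pearson correlations of 0.81, 0.80, 0.75, 0.75 and 0.74. Those most like Ighm were Hoxa5, Tuba1a, Cd1d1, Ccng2 and Adgrg3, between 0.72 and 0.76, and those most like Igll1 were Tspo2, Gsx1, Cyp2s1, Plekhg4 and Poteg, between 0.70 and 0.74. Among the members themselves, Vpreb3 and Pax5 were the most alike pair, at 0.80, or 0.67 without LSK-Dot K1272, followed by Ebf1 and Pax5 at 0.62 and by Igk and Ighm at 0.55. Igk and Vpreb1 had a correlation of -0.002. The points of each correlation share their arrays and normalization, and several of these genes are dim.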

How the data were processed

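The authors deposited 1 table of intensities for 45101 probe sets on 21 arrays. Per the submitters' processing notes these came from RMA, with no version given. RNA was extracted from the sorted cells and labelled as biotinylated cRNA, per the labels' protocols. Array medians of 25.2 to 31.5 show a linear scale. No genome build or scan batch is recorded in the labels.

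Deposited intensities were converted to log2 without a pseudocount and not normalized again. Of all probe sets 34958 had 1 gene symbol, 932 several and 9211 none in the platform annotation, which can be old, and 5 that name a member with other genes were left out. Groups came from titles and genotype labels. The test was limma 3.58.1 (R 4.3.3), fitting 4 group means to all arrays, with Benjamini-Hochberg adjustment over 18194 genes at 0.05, tested on simulated data. The named genes are the members, up to 4 genes with the smallest p from each list, and the 5 genes most alike by correlation. The members and lists were chosen with earlier results of these data known. The number of arrays limits the precision.

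Lists of other cell types gave these calls between the control cell types, higher and lower in GMP, beside 7.03% and 4.95% of all genes. T and NK cell markers had 1 and 2 of 13, plasmacytoid dendritic cell markers 1 and 0 of 9, late neutrophil genes 0 and 2 of 14, and monocyte and macrophage markers 1 and 0 of 9. Between the deleted populations 2 of 9 GMP markers were called higher, and no other gene of any list but Igk was called. The alternatives, listed in the closing section, changed the normalization, pseudocount, filter, probe set, variance model, weights, arrays and blocks.

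The labels do not say whether arrays with the same K number came from the same mouse. The K numbers recur in LSK and GMP, and same-numbered arrays had correlations of their deviations from the group means between -0.397 and 0.272. So few arrays cannot show whether the samples were paired. The arrays were fitted without a block, and the K number was used as a block only in the alternatives. Array weights were estimated by a procedure that stopped before it converged.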

Additional observations from a re-analysis of the deposited data

Results flagged for a closer look

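Each value below was the highest or lowest of its group and lay far from the nearest other array by Dixon's test at 95%, which chance alone passes in about 1 in 20 groups. In all, 18 of 116 groups of 29 probe sets did, 8 of them on LSK-Dot K1272 and 6 on chosen probe sets. LSK-Dot K1272 was the high array for Ighm probe sets 1426196_at (5.74), 1451949_at (6.83) and 1452535_at (5.32), and for Ebf1 probe sets 1416302_at (5.10) and 1457441_at (6.07). It was also the high array for both Pax5 probe sets, 1421765_at (4.54) and 1454401_at (6.23), and for Blnk (3.99). That array is the one with the low correlation to its group and the lowest upper quartile of log2 levels. On it 5 of 18 mature B cell markers and 6 of 13 T and NK cell markers exceeded the LSK median by over 1 (log2). Each other LSK array had 0 to 2 of either list. The part of the array in these values was not tested.

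LSK-Control K1581 was high for Ebf1 probe sets 1416302_at (4.88) and 1448293_at (5.20). LSK-Control K1604 was high for Ighm probe set 1425385_a_at (6.79) and for Ebf1 probe set 1439789_at (5.57). LSK-Control K1602 was high for Ighm probe set 1427329_a_at (7.94) and LSK-Control K1603 for Ighm probe set 1427870_x_at (5.08). LSK-Dot K1422 was high for Igll1 probe set 1420177_at (5.51). In GMP-Control, K1601 was high for Blnk (4.53). In GMP-Dot, K1359 was high for Ighm probe set 1427329_a_at (7.64) and K1421 was low for Cd79b (4.93).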

How the results depend on the processing

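Of 1149 alternative values for 34 member results, 1080 kept direction and side of the threshold. Neither call changed sign, and Igk between control cell types was called in 34 of 35 alternatives and between deleted populations in 21 of 35. Array weights called 2 members for deletion in LSK, 2 in GMP, 1 for the difference of effects and 3 between control cell types. That last comparison had 2 called members with only the groups compared or the upper quartile as covariate, 0 without probe sets whose names carry the suffix _s, _x or _a, and 1 to 2 with single arrays left out (2 without LSK-Control K1602 or LSK-Dot K1272). Between deleted populations 0 were called with log2(intensity + 32), without those probe sets, with the mean of probe sets, only the groups compared, GMP-Dot K1190 and K1272 averaged, both control K1581 arrays left out, or either replicate block, and 0 to 1 with single arrays left out. As a random replicate block the K number left 1 member called between control cell types, as did a level for each number. Over all genes the calls between control cell types ranged from 1043 (a level for each number) to 4439 (only the groups compared) beside 2180, with 7054 under array weights and 1111 to 5531 with single arrays left out. Deletion in GMP gave 8 to 31 called genes beside 26, with 3778 under array weights and 9 to 390 with single arrays left out. Deletion in LSK gave 0 to 6 beside 0 (663 and 0 to 33), the difference of effects 0 to 9 beside 6 (2416 and 1 to 21), and the deleted populations 0 to 58 beside 26 (520 and 4 to 110).

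Some differences that did not pass the test changed sign. The largest of these in the main fit were between control cell types, Ighm at -0.78 and Vpreb1 at 0.405. Ighm for deletion in LSK was 0.11 without the suffixed probe sets, 0.21 as the mean of probe sets, 0.11 without the control K1581 arrays and -0.64 to 0.29 with single arrays left out. Vpreb3 there was -0.10 with array weights (-0.10 to 0.33 with single arrays left out), and Cd79b -0.00013 without the control K1581 arrays (-0.17 to 0.38). For deletion in GMP, Igk was -0.65 without the suffixed probe sets, -0.11 as the mean and -0.045 with the upper quartile (-0.067 to 0.56), and Ebf1 was 0.048 with quantile normalization, 0.00027 with median centring, 0.052 as the mean and 0.042 with the upper quartile (-0.23 to 0.064). Between control cell types Ighm was 0.56 without the suffixed probe sets and 0.31 as the mean. Igll1 was -0.11 with quantile normalization, -0.012 with median centring, -0.046 as the mean, -0.11 with array weights and -0.059 with the upper quartile (-0.066 to 0.18). Vpreb1 was -0.16 with array weights and -0.41 with a level for each number (-0.41 to 1.26), and Blnk was -0.23 with quantile normalization and -0.10 with the upper quartile (-0.15 to 0.15). The cause was not tested. Signals near or below the median gene limit Igll1, Vpreb3, Cd79a, Ebf1, Pax5 and Blnk.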
